A study of Mus musculus with 39 samples.

Results

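To ask what the loss of NT3 changes in DRG cells other than proprioceptors, TrkC GFPoff cells of NT3-/-Bax-/- mice were compared with TrkC GFPoff cells of Bax-/- mice. The comparison rests on 4 of the 39 arrays of the series, 2 for each genotype, chosen by genotype, population and age alone, and on 45037 of the 45101 probe sets, after 64 Affymetrix controls were left out. NT3-/-Bax-/- TrkC GFPoff cells carried null alleles of NT3 and Bax together with the TrkC-GFP transgene, and Bax-/- TrkC GFPoff cells carried the Bax null allele and the same transgene with NT3 intact. All came from p0 mice on a 129/C57Bl6 background. Lumbar DRG of all levels were pooled and dissociated, GFP-negative cells were collected by FACS, and about 350 cells went into each sample. The transgene is a BAC that drives GFP from TrkC regulatory elements and marks TrkC-expressing neurons only in part, so the GFPoff sort can hold TrkC neurons. The methods give a gate for GFPon cells by size and fluorescence, and no neuronal marker was used to collect the GFPoff cells, which can therefore include every other cell of the ganglion. No label says how many animals went into each array. The p-values measure the spread between the 2 arrays of a group, pooled over all groups of the fit. Besides both sorts of the 2 genotypes, that fit held both sorts of wild-type mice and of mlcNT3 mice, which carry extra NT3 in muscle.

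NT3 is the ligand of the receptor TrkC, and proprioceptors, the sensory neurons that innervate muscle spindles and Golgi tendon organs, need it to survive before birth. Bax is required for the cell death that follows loss of a neurotrophin, so on a Bax-/- background neurons that would die without NT3 persist, and the effect of NT3 on gene expression can be read apart from survival. Most TrkC GFPoff neurons of a newborn ganglion are nociceptors and mechanoreceptors that depend mainly on factors other than NT3. A ganglion also holds satellite glia, Schwann cells, blood vessels with endothelium and pericytes, fibroblasts of the capsule and macrophages, some of which divide at birth.

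Levels are given as expression values, the linear rma intensities of 1 probe set, which can be compared between arrays but not between genes. Differences are log2 values of NT3-/-Bax-/- minus Bax-/- with the standard error from limma, fitted on the 16 pooled lumbar p0 arrays, and a gene was called at an adjusted p of 0.05 over all probe sets. The median expression value of the 4 arrays lay between 69.5 and 72.5. Across probe sets, the log2 values of the NT3-/-Bax-/- arrays correlated with r = 0.97 and those of the Bax-/- arrays with r = 0.99. Pairs of arrays of different genotype had r between 0.93 and 0.96. The median absolute log2 difference between the 2 arrays of a genotype was 0.28 in NT3-/-Bax-/- and 0.18 in Bax-/- cells. The spread behind the p-values is pooled over groups and does not follow this gap. Log2 differences between 3' and 5' control probe sets, a sign of RNA quality and amplification, were 2.42 and 2.44 in NT3-/-Bax-/- arrays and 2.40 and 2.35 in Bax-/- arrays for beta-actin. For Gapdh they were 2.53 and 2.38 in NT3-/-Bax-/- arrays and 3.53 and 2.66 in Bax-/- arrays. The genotypes did not overlap for either control, NT3-/-Bax-/- arrays being higher for beta-actin and lower for Gapdh, and the part of RNA quality in the results was not tested. NT3, Bax and Etv1 had no probe set assigned to them alone and were not analysed here, so the genotypes were not checked on the targeted transcripts. The X-linked Xist and the Y-linked Eif2s3y placed replicate 1 of both genotypes on the male side and replicate 2 of both on the female side, so sex was balanced between them, the 2 arrays of a genotype did not come from the same single animal, and none of 4 sex-linked genes was called.

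In NT3-/-Bax-/- TrkC GFPoff cells, 4462 probe sets (9.91%) were higher and 5313 (11.8%) were lower than in Bax-/- TrkC GFPoff cells. With the thresholds of the study, an unadjusted p of 0.02 and a fold of 2, limma gave 2867 (6.37%) higher and 3049 (6.77%) lower probe sets, and the methods' t-test, run on the same values, gave 753 higher and 769 lower. Counted with 1 probe set per gene, 1851 of 18194 genes (10.2%) were higher and 2792 (15.3%) were lower, and the median log2 difference of all genes was -0.04. The counts of gene lists in TrkC GFPoff cells below are to be read beside these shares. Changes of over 16-fold were found for 32 genes that were higher and 18 that were lower. Bax-/- replicate 1 weighed most on these numbers, since without it 2055 probe sets were higher and 2567 were lower. When the 4 arrays were fitted without the other 12, 14 of 84 genes followed through every setting lost their call, namely S100b, Cd14, Nefh, Rbfox3, Piezo2, Lmo1, Psd2, Ngfr, Bcl2l11, Neurod1, Jun, Rab27b, Gna14 and Synpr (adjusted p between 0.0556 and 0.234).

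The label TrkC GFPoff neurons was checked first against markers of neurons and of the other cells of the ganglion. Markers of fibroblasts, blood vessels, meninges, glia and dividing cells were higher in both NT3-/-Bax-/- arrays, and pan-neuronal markers were lower in both. The mean log2 level over 20 pan-neuronal genes was 11.50 and 11.04 in the NT3-/-Bax-/- arrays, against 12.22 and 12.09 in the Bax-/- arrays and 11.97 to 12.46 in the other 10 TrkC GFPoff arrays of p0 mice. Both NT3-/-Bax-/- arrays were thus below every other p0 TrkC GFPoff array on this mean, and replicate 2 was the lower of them. The other 10 came from wild-type and mlcNT3 mice. Part of them held wild-type cells of L1 or L5 alone, with fewer cells per sample. In bulk samples such as these, fewer cells of a type and less RNA per cell cannot be told apart.

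**Figure D1:**
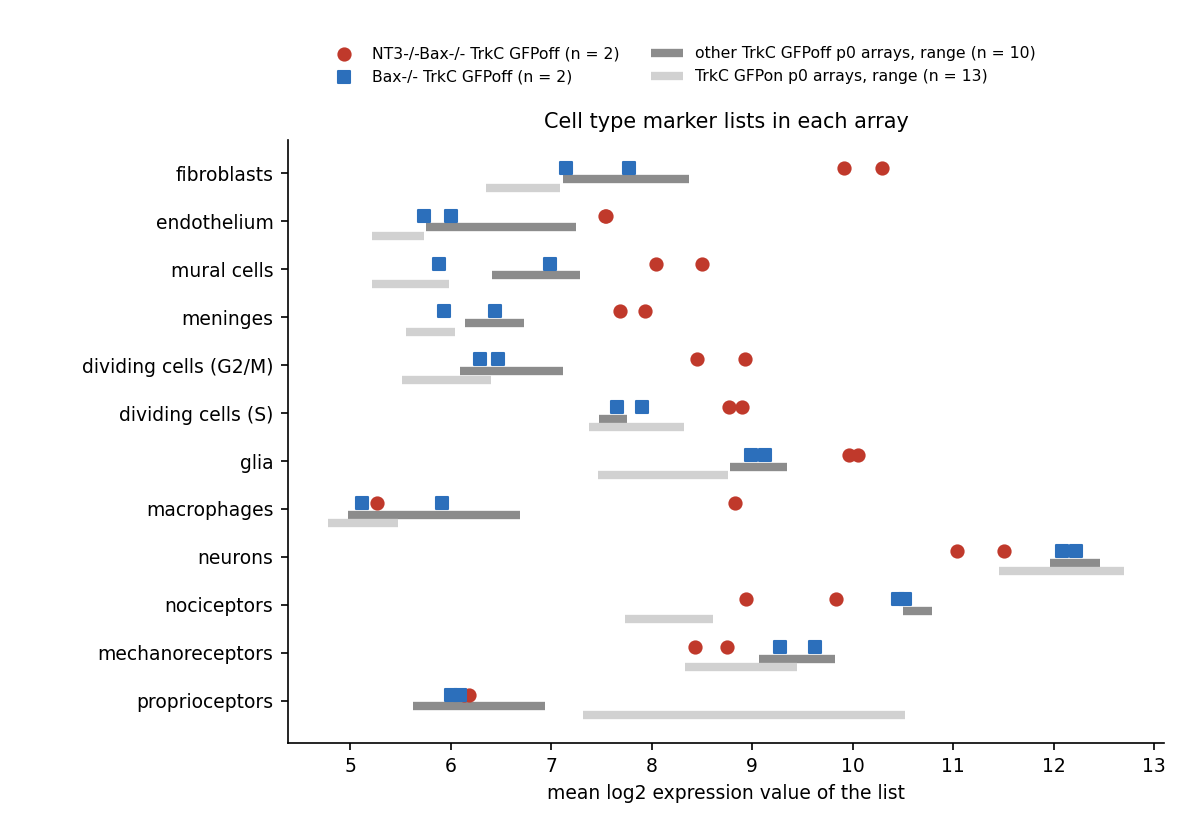
Mean log2 expression value (x axis) of 12 marker lists (one per line), with 1 circle per NT3-/-Bax-/- and 1 square per Bax-/- TrkC GFPoff array, and dark and light bars for the ranges of the other 10 TrkC GFPoff and the 13 TrkC GFPon p0 arrays. The fibroblast list lies at 9.91 and 10.30 in NT3-/-Bax-/- TrkC GFPoff arrays, above the 7.14 and 7.77 of Bax-/- TrkC GFPoff arrays.

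Nearly the whole set of fibroblast genes was higher. Of 21 measured fibroblast genes, 19 were higher in NT3-/-Bax-/- TrkC GFPoff cells, none was lower, and the median log2 difference was 2.25, beside -0.04 over all genes. Col3a1, a fibrillar collagen chain of loose connective tissue, had expression values of 10953 and 14535 in NT3-/-Bax-/- cells and 83.2 and 429.8 in Bax-/- cells, a log2 difference of 6.06 ± 0.96 (SE, adjusted p = 0.000966). Col1a1, the major collagen chain of fibroblasts, reached 3564 and 5434 in NT3-/-Bax-/- cells against 48.7 and 103 in Bax-/- cells (5.96 ± 0.38, adjusted p = 6.10e-06). Neither gene overlapped between the genotypes, and within each genotype replicate 2 was the higher array for both. Pdgfra, a receptor tyrosine kinase that marks mesenchymal fibroblasts, had values of 1583 and 3084 in NT3-/-Bax-/- cells and 122 and 133 in Bax-/- cells (4.12, adjusted p = 4.98e-06). Col6a3, a collagen of the pericellular matrix, differed by 4.28, and Lum, a small proteoglycan of collagen fibrils, by 5.04. Both NT3-/-Bax-/- arrays lay above all 12 other p0 TrkC GFPoff arrays for 16 of the 21 genes, as they did for 12.7% of all genes. On the list mean, the other 10 p0 TrkC GFPoff arrays spanned 7.12 to 8.37 and TrkC GFPon arrays 6.35 to 7.09, so both NT3-/-Bax-/- TrkC GFPoff arrays lay above all other p0 arrays.

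Genes of the vessel wall were higher as well. Of 19 endothelial genes, 14 were higher and none was lower, with a median of 1.44 on the log2 scale. Tek, the angiopoietin receptor of endothelium, had values of 639.9 and 689.8 in NT3-/-Bax-/- cells, against 39.99 and 47.2 in Bax-/- cells (3.94 ± 0.32, adjusted p = 2.15e-05). For Cldn5, the tight junction protein of the blood-brain barrier, the values were 430.1 and 344 in NT3-/-Bax-/- cells and 47.7 and 60.1 in Bax-/- cells (2.84, adjusted p = 2.45e-05). Cdh5, the adhesion molecule of endothelial junctions, gave 296 and 369.7 in NT3-/-Bax-/- cells against 45.6 and 79.9 in Bax-/- cells (2.45, adjusted p = 5.62e-05). All 3 genes were clearly separated between the genotypes and similar between the arrays of each. The endothelial mean was 7.55 and 7.54 in the NT3-/-Bax-/- arrays, 5.74 and 6.01 in the Bax-/- arrays and 5.76 to 7.25 in the other p0 TrkC GFPoff arrays, so here the highest of the other p0 TrkC GFPoff arrays came nearer to the NT3-/-Bax-/- arrays than for fibroblast genes. Among those other arrays, the pooled lumbar ones of wild-type and mlcNT3 mice spanned 5.76 to 6.04. The wild-type arrays of L1 or L5 alone spanned 6.58 to 7.25. Both NT3-/-Bax-/- arrays exceeded all other p0 TrkC GFPoff arrays for 6 of the 19 endothelial genes.

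Of 10 pericyte and smooth muscle genes 7 were higher and none lower (median 1.89), and of 9 genes of meninges and perineurium 6 were higher and none lower (median 1.34). Abcc9, a potassium channel subunit of pericytes, had 516 and 1778 in NT3-/-Bax-/- cells and 56.6 and 112 in Bax-/- cells (3.59, adjusted p = 0.0008). Foxc1, a forkhead factor of the meninges, had 225 and 453 in NT3-/-Bax-/- cells and 28.8 and 26.8 in Bax-/- cells (3.52, adjusted p = 2.26e-05). Cldn1, a tight junction protein of the perineurium, differed by 4.18, and Zic1, a zinc finger factor of meninges and dorsal neural tissue, by 6.08, the largest rise among genes with no overlap between the genotypes. Zic1 reached 587 and 903 in NT3-/-Bax-/- cells, against 9.38 and 12.4 in Bax-/- cells (adjusted p = 4.51e-06). Without Bax-/- replicate 1, 4 pericyte genes and 4 genes of meninges and perineurium were higher.

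Genes of dividing cells were the third non-neuronal group that was higher. Of 19 genes of G2 and mitosis, 17 were higher and none was lower, with a median log2 difference of 2.54, and 10 of 15 genes of S phase were higher, with a median of 0.93. Because the G2 and mitosis genes moved together, the 250 bases before the start of 3 of them are shown, taken from RefSeq (GRCm38.p6) and written 5′ to 3′ on the strand of the gene. The genes are Ccnb2, a mitotic cyclin, Cdk1, the kinase that mitotic cyclins activate, and Top2a, the topoisomerase that untangles chromosomes. Capitals mark CCAAT, the element bound by NF-Y, and TTTGAA, the core of the cell cycle homology region, each on either strand.
Ccnb2, chr9:70421555-70421804, minus strand: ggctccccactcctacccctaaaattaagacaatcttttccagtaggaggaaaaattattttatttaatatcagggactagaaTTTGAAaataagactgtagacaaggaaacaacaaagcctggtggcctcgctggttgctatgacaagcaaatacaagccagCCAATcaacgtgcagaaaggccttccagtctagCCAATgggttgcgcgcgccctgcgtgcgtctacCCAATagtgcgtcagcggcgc
Cdk1, chr10:69352913-69353162, minus strand: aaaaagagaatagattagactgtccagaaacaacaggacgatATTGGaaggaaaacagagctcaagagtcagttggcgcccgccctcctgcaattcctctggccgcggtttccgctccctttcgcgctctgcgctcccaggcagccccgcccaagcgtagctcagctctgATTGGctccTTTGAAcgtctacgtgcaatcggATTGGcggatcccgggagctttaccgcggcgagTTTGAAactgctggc
Top2a, chr11:99024190-99024439, minus strand: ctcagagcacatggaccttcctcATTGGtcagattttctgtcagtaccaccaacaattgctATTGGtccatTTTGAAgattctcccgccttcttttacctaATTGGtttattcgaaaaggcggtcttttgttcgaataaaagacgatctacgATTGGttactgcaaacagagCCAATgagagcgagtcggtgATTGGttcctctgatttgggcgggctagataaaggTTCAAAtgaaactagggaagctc
CCAAT occurred 3 times before Ccnb2, 3 times before Cdk1 and 6 times before Top2a. Of the 18 genes of G2 and mitosis with an entry, 16 (88.9%) held CCAAT in this window and 8 (44.4%) held TTTGAA, against 37.5% and 18.3% of all 27025 genes with an entry. CCAAT was found in 9 of 13 S phase genes (69.2%), in 3 of 15 fibroblast genes (20.0%), in 5 of 12 endothelial genes (41.7%) and in 7 of 25 genes of transmitter release (28.0%). TTTGAA was found in 1 (7.69%), 6 (40.0%), 3 (25%) and 5 (20.0%) of the same lists. A match describes letters and shows no binding.

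The genes whose promoters are shown were among the clearest of the dividing group. Ccnb2 had values of 612 and 1042 in NT3-/-Bax-/- cells and 55.7 and 69.6 in Bax-/- cells (3.68 ± 0.38, adjusted p = 7.69e-05). Cdk1 had 923 and 1144 in NT3-/-Bax-/- cells and 92.5 and 108 in Bax-/- cells (3.36, adjusted p = 3.22e-05), and Top2a had 1411 and 1998 in NT3-/-Bax-/- cells against 121 and 208 in Bax-/- cells (3.40, adjusted p = 0.00043). Mki67, the antigen of proliferating cells, reached 3472 and 4762 in NT3-/-Bax-/- cells, against 252 and 413 in Bax-/- cells (3.66, adjusted p = 0.000584). For each of these genes the lower NT3-/-Bax-/- array was well above the higher Bax-/- array. Among S phase genes, Rrm2, a subunit of ribonucleotide reductase, differed by 2.28 and Pcna, the sliding clamp of DNA polymerase, by 0.93. The mean over the genes of G2 and mitosis was 8.46 and 8.93 in NT3-/-Bax-/- arrays, 6.29 and 6.47 in Bax-/- arrays, 6.09 to 7.12 in the other p0 TrkC GFPoff arrays and 5.52 to 6.4 in TrkC GFPon arrays, and 16 of the 19 genes were above all other p0 TrkC GFPoff arrays in both NT3-/-Bax-/- arrays. Without Bax-/- replicate 1, 5 S phase genes were higher.

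Of 19 genes of Schwann cells and satellite glia, 12 were higher and 1 was lower, with a median of 0.97. Mbp, a protein of compact myelin, had 8189.9 and 7647 in NT3-/-Bax-/- cells and 1455 and 2593 in Bax-/- cells (2.03, adjusted p = 0.00233). Egr2, the transcription factor of myelinating Schwann cells, differed by 2.07 (adjusted p = 0.00197), and Sox2, a factor of immature glia, by 1.64 (adjusted p = 0.00249). The gene that fell was S100b, a calcium-binding protein, with 178 and 171 in NT3-/-Bax-/- cells and 816 and 397 in Bax-/- cells (-1.70, adjusted p = 0.000794). S100b is found in glia and also in large sensory neurons. The glial call rested in part on Bax-/- replicate 1, without which 4 genes were higher and 1 lower.

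Macrophage genes separated the 2 NT3-/-Bax-/- arrays from each other. The mean over 16 macrophage genes was 8.83 in NT3-/-Bax-/- replicate 1 and 5.27 in replicate 2, against 5.11 and 5.91 in the Bax-/- arrays, and 1 gene, Cd14, passed the test. Cd14, a co-receptor for bacterial lipopolysaccharide, had 733 and 93.1 in NT3-/-Bax-/- cells and 47.1 and 70.4 in Bax-/- cells, and Csf1r, the receptor for the macrophage growth factor CSF1, had 8320.4 and 290.0 in NT3-/-Bax-/- cells and 114 and 962 in Bax-/- cells. Macrophage transcripts were thus abundant in 1 NT3-/-Bax-/- array only. Without NT3-/-Bax-/- replicate 2, 14 of the 16 genes were higher, and Cd14 was not called without NT3-/-Bax-/- replicate 1 (0.69, adjusted p = 0.323). None of 6 erythroid genes and none of 10 spinal cord genes passed the test at these levels. Of 13 genes of cartilage, bone and muscle, 1 was higher and 2 were lower, beside 10.2% and 15.3% of all genes.

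To set neuronal change beside these transcripts, the mean levels of the endothelial, fibroblast and dividing lists were added to the fit one at a time and together. The number of probe sets higher or lower after adjustment was then 0 with the endothelial or the fibroblast list, 0 with the dividing list, and 0 higher and 1 lower with all of them combined. The median standard error was 0.22 without such a term and 1.27, 0.95, 0.68 and 1.08 with the endothelial, fibroblast, dividing and combined terms, and the lists differ between these same 2 genotypes. Signs turned for some genes in these fits without a call, as for Nefh (0.99 with the dividing term and 4.46 with the combined one) and Col3a1 (-2.57 with the fibroblast term). The share of non-neuronal RNA and the loss of NT3 cannot be told apart by this adjustment. A scaling that sets the mean of the 20 pan-neuronal genes equal in the 2 genotypes, chosen after the data had been seen, adds 0.88 to every difference. With it 30563 of 45037 probe sets were higher and 1156 lower. Counts of higher genes after this scaling are to be read beside that share, since the same amount was added to every gene. Of the 2792 genes that were lower, 609 were still called lower after that scaling, and they show which falls were deeper than that of the pan-neuronal mean. It is given beside the neuronal groups that follow.

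**Figure D2:**
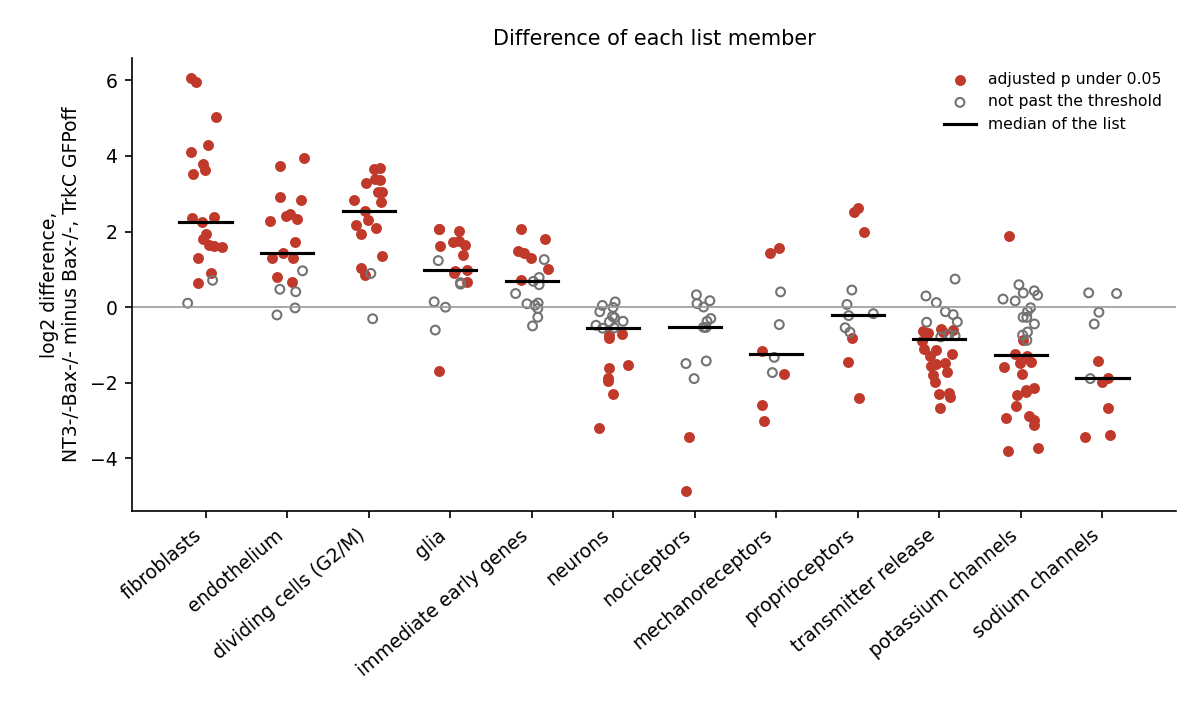
Log2 difference, NT3-/-Bax-/- minus Bax-/- TrkC GFPoff cells, for every measured gene of 12 lists, with 1 point per gene and a line at the median. Filled points had an adjusted p under 0.05. Fibroblast genes have a median of 2.25 and sodium channel genes one of -1.87.

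Of the 20 pan-neuronal genes, 9 were lower, none was higher and the median was -0.56. Nefh, the heavy neurofilament of large-diameter neurons, had 851 and 129 in NT3-/-Bax-/- cells and 4025 and 2315 in Bax-/- cells (-3.21 ± 0.61, adjusted p = 0.00303). Rbfox3, the nuclear antigen NeuN, had 3087 and 1491 in NT3-/-Bax-/- cells and 6762 and 6359 in Bax-/- cells (-1.61, adjusted p = 0.00165). The change was uneven, since Prph, the intermediate filament of small-diameter neurons, differed by -0.74 and Stmn2, a tubulin-binding protein of growing axons, by -0.73, both called, while the other 11 genes were not called. Without NT3-/-Bax-/- replicate 2 or without Bax-/- replicate 1, 5 genes were lower.

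Of 30 measured genes of transmitter release, 20 were lower, none was higher and 10 did not pass the test (median -0.85). Syt1, the calcium sensor of fast vesicle fusion, had 2066 and 880.2 in NT3-/-Bax-/- cells and 7425 and 6007 in Bax-/- cells (-2.31, adjusted p = 0.000863), and its relative Syt2 had 97.96 and 83.3 in NT3-/-Bax-/- cells against 476 and 405 in Bax-/- cells (-2.28, adjusted p = 4.40e-05). Unc13c, a vesicle priming factor, had 355 and 303 in NT3-/-Bax-/- cells and 2083 and 2103 in Bax-/- cells (-2.67, adjusted p = 3.31e-05). No array of NT3-/-Bax-/- cells reached the lower Bax-/- array for any of these 3 genes. Slc17a6, the vesicular glutamate transporter of sensory neurons, differed by -0.63 and Syp, a vesicle membrane protein, by -0.61. The count was 13 without Bax-/- replicate 1, and with the pan-neuronal scaling 9 were lower and 5 higher.

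Sodium and potassium channel genes had the lowest medians of the channel families. Of 11 sodium channel genes, 6 were lower and none was higher, with a median of -1.87, and with the pan-neuronal scaling 5 were lower and 3 higher. Scn10a, the tetrodotoxin-resistant channel of nociceptors, had 198 and 60.5 in NT3-/-Bax-/- cells and 1292 and 1083 in Bax-/- cells (-3.44 ± 0.52, adjusted p = 0.000759). Scn4b, a beta subunit, had 33.99 and 29.96 in NT3-/-Bax-/- cells and 611 and 182 in Bax-/- cells (-3.39, adjusted p = 0.000351), and Scn1a, an alpha subunit, differed by -2.67. Among 34 potassium channel and associated genes, 19 were lower and 1 was higher, with a median of -1.27, and 13 were lower and 10 higher with the pan-neuronal scaling. Kcnip4, an interacting protein of A-type channels, had 41.6 and 35.4 in NT3-/-Bax-/- cells and 865 and 336 in Bax-/- cells (-3.81, adjusted p = 0.000106). Kcnt1, a sodium-activated channel, had 187 and 64.5 in NT3-/-Bax-/- cells and 1566 and 1367 in Bax-/- cells (-3.74, adjusted p = 5.04e-05). Over all 2792 lower genes, replicate 2 was the lower NT3-/-Bax-/- array for 1801 (64.5%). The potassium channel that was higher was Kcnd2, an A-type channel (1.89).

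Calcium channel genes were split, with 6 of 15 lower and 1 higher. The one that was higher, Cacna1e, the R-type channel, had 1918 and 2715 in NT3-/-Bax-/- cells and 301 and 371 in Bax-/- cells (2.77, adjusted p = 7.41e-05). Cacna2d3, an auxiliary subunit, differed by -2.78. Of 19 genes of TRP, P2X, ASIC and Piezo channels, 7 were lower and 1 was higher. Asic2, an acid-sensing channel, had 109 and 89.3 in NT3-/-Bax-/- cells and 822 and 518 in Bax-/- cells (-2.73, adjusted p = 0.0001), and Piezo2, the channel of touch and proprioception, had 614 and 379 in NT3-/-Bax-/- cells against 1159 and 992 in Bax-/- cells (-1.15, adjusted p = 0.00427). Piezo1, which is mechanosensitive too and is found in endothelium, had 633 and 765 in NT3-/-Bax-/- cells and 96.3 and 120.1 in Bax-/- cells (2.69, adjusted p = 3.22e-05). The fall of Piezo2 was not called with the pan-neuronal scaling (-0.27, adjusted p = 0.276). Of 25 GABA and glutamate receptor genes, 5 were lower and 3 higher, shares near the 15.3% and 10.2% of all genes. Among the higher ones was Gabrb1, a GABA-A receptor subunit, with 2165 and 4369 in NT3-/-Bax-/- cells and 426 and 678 in Bax-/- cells (2.52, adjusted p = 0.000248). Without Bax-/- replicate 1, 2 receptor genes were lower.

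Nociceptor genes were affected unevenly. Of 13, 2 were lower, a share near the 15.3% of all genes, and none was higher, with a median of -0.54. Calcb, the beta form of the calcitonin gene-related peptide, had 163 and 29.3 in NT3-/-Bax-/- cells and 2446 and 1648 in Bax-/- cells (-4.86 ± 0.67, adjusted p = 0.000422), and Scn10a was the other gene called lower. By contrast Trpv1, the capsaicin receptor, had 1569 and 1039 in NT3-/-Bax-/- cells and 932 and 1387 in Bax-/- cells (0.17, adjusted p = 0.688). P2rx3, an ATP-gated channel of nociceptors, had 7869.6 and 7784 in NT3-/-Bax-/- cells and 6635 and 8145 in Bax-/- cells (0.09, adjusted p = 0.839). Gfra3, the artemin co-receptor, had 2762 and 3568 in NT3-/-Bax-/- cells against 3754 and 4441 in Bax-/- cells (-0.38, adjusted p = 0.152), so that these 3 nociceptor genes did not pass the test while the pan-neuronal mean was lower. With the pan-neuronal scaling 4 nociceptor genes were higher, Trpv1 (1.05, adjusted p = 0.00718) and P2rx3 (0.97, adjusted p = 0.0126) among them, and 2 were lower. These 4 of 13 were a smaller share than the 30563 of 45037 probe sets called higher with that scaling. Without NT3-/-Bax-/- replicate 1, 5 were lower.

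Of 10 mechanoreceptor genes, 4 were lower and 2 higher (median -1.24), beside 15.3% and 10.2% of all genes. With the pan-neuronal scaling 3 were lower and 3 higher. Ret, the signalling receptor of GDNF family ligands, had 1174 and 724 in NT3-/-Bax-/- cells and 6486 and 4709.7 in Bax-/- cells (-2.58, adjusted p = 0.00168). Gfra1, the GDNF co-receptor, had 133 and 105 in NT3-/-Bax-/- cells and 1463 and 619.5 in Bax-/- cells (-3.01, adjusted p = 7.66e-05). Of 3 Gfra1 probe sets 1 was called lower, and of 2 Ret probe sets 2 were. Both arrays of NT3-/-Bax-/- cells were below both arrays of Bax-/- cells for either gene, and without Bax-/- replicate 1 none of the 10 was higher.

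Proprioceptor genes did not move one way in the GFPoff sort, with 3 of 12 higher, 3 lower and a median of -0.20. Ntrk3, which encodes TrkC, had 543 and 569.9 in NT3-/-Bax-/- cells and 115 and 171 in Bax-/- cells (1.99 ± 0.31, adjusted p = 0.000803). Esrrg, an estrogen-related receptor of proprioceptors, had 293 and 637 in NT3-/-Bax-/- cells and 81.2 and 70.8 in Bax-/- cells (2.51, adjusted p = 0.00071). These values are of the brightest probe set. Of 8 Ntrk3 probe sets 3 were called higher, of 3 Esrrg probe sets 1 was, and 0 of either gene were called lower. Pvalb, the calcium-binding protein parvalbumin, had 50.5 and 50.3 in NT3-/-Bax-/- cells and 78.3 and 41.4 in Bax-/- cells (-0.18, adjusted p = 0.869), and Runx3, the transcription factor of proprioceptors, had 24.7 and 21.5 in NT3-/-Bax-/- cells against 17.6 and 16.1 in Bax-/- cells (0.45, adjusted p = 0.312). Parvalbumin and Runx3 did not pass the test. Gjd2, a connexin of electrical synapses, fell to 16.3 and 19.5 in NT3-/-Bax-/- cells, against 148 and 61.1 in Bax-/- cells (-2.41, adjusted p = 0.000689). The level of the list was 6.18 and 6.13 in NT3-/-Bax-/- arrays and 6.0 and 6.09 in Bax-/- arrays, against 7.32 to 10.53 in TrkC GFPon arrays. Of those GFPon arrays, the ones of NT3-/-Bax-/- mice lay at 7.32 and 7.47 and the ones of Bax-/- mice at 10.37 and 10.14. GFP-negative cells of both genotypes were thus below the GFPon sort, but the gap was much smaller in NT3-/-Bax-/- than in Bax-/- mice. Of 10 measured genes that the study names, which it chose on these samples, 4 were higher and 1 was lower, and without Bax-/- replicate 1 the higher ones numbered 2. Psd2 (1.55) and Lmo1 (1.26) were the others that rose, and both calls were lost without that array, the Lmo1 call also without NT3-/-Bax-/- replicate 2.

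**Figure D3:**
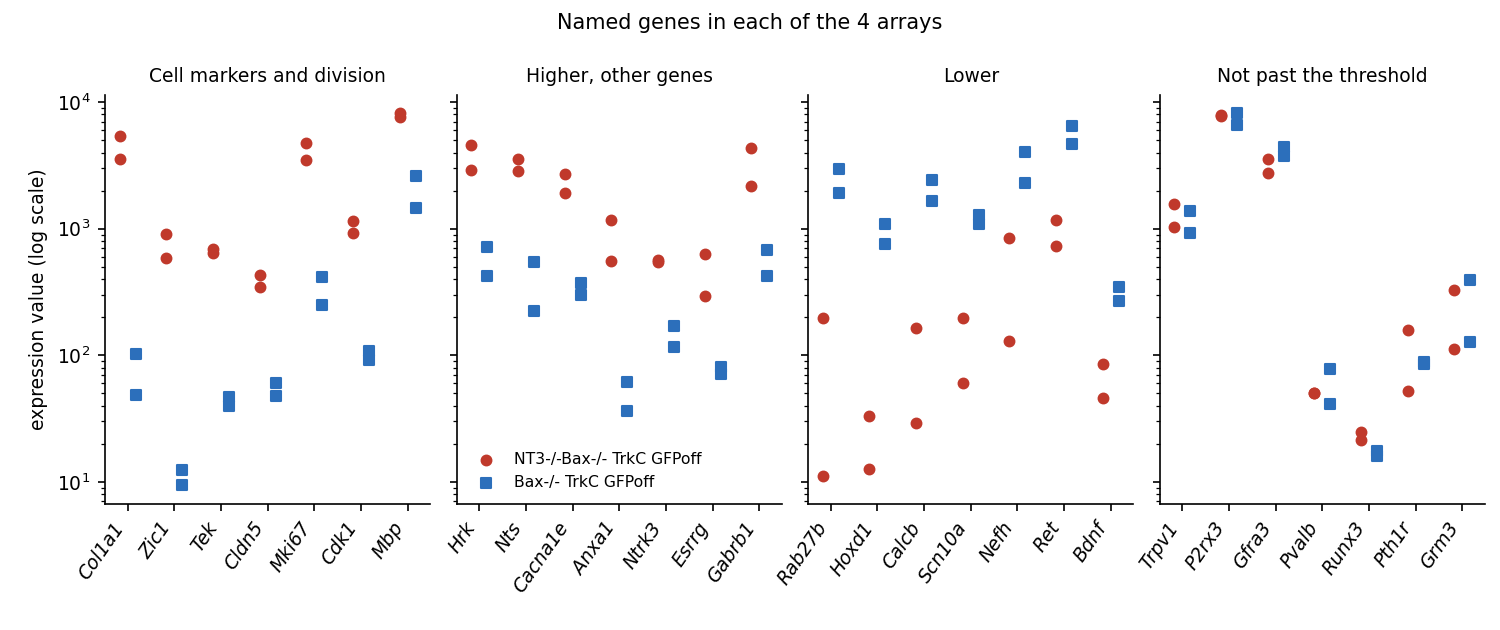
Expression values of named genes on a log axis, in 4 panels for cell markers, other higher genes, lower genes and genes not past the threshold, with circles for NT3-/-Bax-/- and squares to their right for Bax-/- TrkC GFPoff cells, 1 per array. The axis serves to compare arrays within a gene, not genes. Ntrk3 lies at 543 and 569.9 in NT3-/-Bax-/- cells and at 115 and 171 in Bax-/- cells.

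Among 20 neurotrophin ligands, receptors and adaptors, 8 were lower and 1, Ntrk3, was higher, with a median of -0.55. Over all genes, 15.3% were lower and 10.2% higher. Bdnf, the ligand of TrkB, had 85.5 and 45.99 in NT3-/-Bax-/- cells and 349 and 268 in Bax-/- cells (-2.29, adjusted p = 0.000421). Ngfr, the low-affinity receptor of all neurotrophins, had 1228 and 809 in NT3-/-Bax-/- cells and 4584 and 1806 in Bax-/- cells (-1.53, adjusted p = 0.0152). The Ngfr call was lost without NT3-/-Bax-/- replicate 2 (-1.23, adjusted p = 0.0992), without Bax-/- replicate 1 (-0.86, adjusted p = 0.172) and with the pan-neuronal scaling (-0.65, adjusted p = 0.0901). With that scaling 3 genes of the list were lower and 6 higher, and the lower genes numbered 5 without either NT3-/-Bax-/- array and 4 without Bax-/- replicate 1.

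Targets and feedback inhibitors of ERK, the kinase that neurotrophin receptors activate, went both ways, with 6 of 20 lower and 3 higher (median -0.44). The shares over all genes were 15.3% lower and 10.2% higher. Vgf, a secreted peptide precursor induced by neurotrophins, had 346 and 214 in NT3-/-Bax-/- cells and 1355 and 1120.4 in Bax-/- cells (-2.18, adjusted p = 6.94e-05). Etv5, an ETS factor downstream of ERK, had 374 and 247 in NT3-/-Bax-/- cells and 1525 and 955 in Bax-/- cells (-1.99, adjusted p = 0.000819), and Spry3, a feedback inhibitor, had 26.98 and 25.4 in NT3-/-Bax-/- cells against 211 and 156 in Bax-/- cells (-2.79, adjusted p = 3.57e-05). Spry1, a related inhibitor, had 454 and 609 in NT3-/-Bax-/- cells and 98.6 and 121 in Bax-/- cells (2.27, adjusted p = 0.000117). Members of one inhibitor family therefore changed in opposite directions in the same sort. With the pan-neuronal scaling 4 were lower and 8 higher.

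Immediate early genes, which respond within minutes to activity and growth factors, were higher for 7 of 18 and lower for none (median 0.70). The largest difference of the list was that of Egr2 (2.07), which was also counted among the glial genes. Jun, a component of AP-1, had 2411 and 3978 in NT3-/-Bax-/- cells and 994 and 1586 in Bax-/- cells (1.30, adjusted p = 0.0109), a call lost without NT3-/-Bax-/- replicate 2 (adjusted p = 0.0892) and without Bax-/- replicate 1 (adjusted p = 0.122). Of 20 genes of the nerve injury response, 3 were higher and 2 lower, beside 10.2% higher and 15.3% lower over all genes. Anxa1, a phospholipid-binding protein, had 556 and 1179.9 in NT3-/-Bax-/- cells and 36.0 and 61.9 in Bax-/- cells (4.10, adjusted p = 0.000111). Heat shock and stress genes were higher for 4 of 15 and lower for none, among them Ddit3, a factor of the unfolded protein response (1.76). Without NT3-/-Bax-/- replicate 2 or without either Bax-/- array, 1 stress gene was higher, and without Bax-/- replicate 1 only 1 injury gene was higher and 1 lower. Which cells carry these transcripts was not tested.

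Of 14 genes of cell death, 3 were higher and 1 lower, beside 10.2% and 15.3% of all genes. Hrk, a BH3-only protein induced in neurons that lose a neurotrophin, had 2912 and 4606 in NT3-/-Bax-/- cells and 420.5 and 720.2 in Bax-/- cells (2.73 ± 0.28, adjusted p = 6.92e-05). Bmf, another BH3-only protein, had 554 and 443 in NT3-/-Bax-/- cells and 109 and 160.4 in Bax-/- cells (1.91, adjusted p = 0.00256). Bcl2l11, which encodes Bim, had 1235 and 2143 in NT3-/-Bax-/- cells against 584 and 944 in Bax-/- cells (1.13, adjusted p = 0.0473). Hrk and Bmf did not overlap between the genotypes and kept their calls without each array, while the Bcl2l11 call was lost without NT3-/-Bax-/- replicate 2 (adjusted p = 0.277) and without Bax-/- replicate 1 (adjusted p = 0.318). Bcl2l11 did not overlap between the genotypes either. Of its 5 probe sets 4 were called higher, as were 1 of 3 for Bmf and 2 of 2 for Hrk. The gene that was lower was Casp9, the initiator caspase downstream of Bax (-1.21).

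Neuropeptide genes were higher for 2 of 20 and lower for 4, shares near the 10.2% and 15.3% of all genes. Nts, the precursor of neurotensin, had 2843 and 3572 in NT3-/-Bax-/- cells and 226 and 549.5 in Bax-/- cells (3.18, adjusted p = 0.000591). Calcb was the deepest fall of this list. Of 26 transcription factors of sensory neurons, 6 were higher and 3 lower. Isl2, a LIM homeodomain factor, had 457 and 295 in NT3-/-Bax-/- cells and 2647 and 1822 in Bax-/- cells (-2.58, adjusted p = 4.50e-05), and Meis2, a TALE homeodomain factor, had 271 and 153 in NT3-/-Bax-/- cells against 1447 and 1070.0 in Bax-/- cells (-2.61, adjusted p = 9.34e-05). Neurod1, a proneural factor of early neurons, had 731 and 1743 in NT3-/-Bax-/- cells and 164 and 337 in Bax-/- cells (2.26, adjusted p = 0.00512), a call lost without Bax-/- replicate 1 (adjusted p = 0.0671). Without that array 1 factor of the list was higher, and without NT3-/-Bax-/- replicate 2 the higher ones numbered 3. Axon guidance and adhesion genes were lower for 13 of 51 and higher for 8. Cntn2, an adhesion molecule of axons, fell to 372 and 396 in NT3-/-Bax-/- cells, against 1619 and 1812 in Bax-/- cells (-2.16, adjusted p = 1.20e-05), and Sema3c, a secreted semaphorin, had 2539 and 3219.5 in NT3-/-Bax-/- cells against 746 and 928 in Bax-/- cells (1.78, adjusted p = 0.000243). Without Bax-/- replicate 1, 7 guidance genes and 2 neuropeptide genes were lower.

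The 3 deepest falls among genes without overlap between the genotypes were those of Rab27b, Gna14 and Hoxd1. Rab27b, a GTPase of secretory vesicles, had 198 and 11.1 in NT3-/-Bax-/- cells and 2947 and 1921 in Bax-/- cells (-5.66 ± 0.93, adjusted p = 0.00121). Gna14, a G protein alpha subunit, had 202 and 15.5 in NT3-/-Bax-/- cells and 2967 and 2592 in Bax-/- cells (-5.63, adjusted p = 0.000621). Hoxd1, a homeobox factor of nociceptor subsets in the mouse, had 33.1 and 12.6 in NT3-/-Bax-/- cells against 1098 and 752 in Bax-/- cells (-5.48, adjusted p = 3.22e-05). Their separation from the Bax-/- arrays follows from this selection. Rab27b, like Calcb, was lower in NT3-/-Bax-/- replicate 2 than in replicate 1. Among the remaining lists, 4 of 35 genes of oxidative phosphorylation and 6 of 18 sterol synthesis genes fell and none of either list was higher, counts that became 0 and 1 without Bax-/- replicate 1 and 2 and 2 without NT3-/-Bax-/- replicate 2. In addition 2 of 13 genes of hypoxia and glycolysis were higher and 1 lower, and 2 of 10 genes of the interferon response were higher and 1 lower, or 6 higher without NT3-/-Bax-/- replicate 2. Finally 4 of 14 genes of retinoid signalling were higher and 1 lower, and of 16 lumbar Hox genes 1 was higher and 2 were lower. Over all genes, 10.2% were higher and 15.3% lower. The share of oxidative phosphorylation genes that fell and both shares of the Hox list were below these. Without Bax-/- replicate 1, 1 retinoid gene and 0 Hox genes were higher.

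The other genes among the 20 largest rises without overlap held several of the extracellular matrix. Tgfbi, a matrix protein induced by TGF-beta, differed by 5.91, Pcolce, an enhancer of procollagen processing, by 5.24, Fap, a surface protease of activated fibroblasts, by 5.19, and Fn1, fibronectin, by 4.87. Agtr2, a receptor for angiotensin II, differed by 5.12, and Ccn2, Vtn, Abca9, Cldn11, Neurod6, Mgp, Ackr3, Apod, Ppp1r17, Filip1l and Tgm2 by 4.29 to 4.63. Among the 20 largest falls, Tspan8, a tetraspanin, differed by -5.40, Tnr, the matrix protein tenascin-R, by -5.23, and Htr3b, a subunit of a serotonin-gated channel, by -4.05. Tmem45b, Zdhhc23, Gng4, Frzb, Rasgrp1, Mal2, Erich3, Susd2, Car10, Morc1 and Serpina3n lay between -4.36 and -3.92.

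To see whether the change was shared with proprioceptors, the same contrast was set beside that of TrkC GFPon cells, which uses none of the same arrays. In TrkC GFPon cells, 8.9% of genes were higher and 12.5% were lower in NT3-/-Bax-/- than in Bax-/- mice. Of the 1851 genes higher in TrkC GFPoff cells, 441 (23.8%) were also higher in TrkC GFPon cells and 196 (10.6%) were lower there. Of the 2792 genes lower in TrkC GFPoff cells, 1038 (37.2%) were also lower in TrkC GFPon cells and 106 (3.80%) were higher. The interaction, the TrkC GFPoff difference minus the TrkC GFPon difference, was above 0 for 7.17% and below 0 for 5.63% of genes. It passed the test above 0 for 807 of the genes that were higher in TrkC GFPoff cells (43.6%), and below 0 for 617 of the genes that were lower (22.1%).

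Several genes that changed in TrkC GFPoff cells changed in the same direction in TrkC GFPon cells. Hrk had values of 8733 and 8825 in NT3-/-Bax-/- and 598 and 763 in Bax-/- TrkC GFPon cells, a log2 difference of 3.70 (adjusted p = 7.82e-06) beside 2.73 in TrkC GFPoff cells. Nts had 8887 and 5341 in NT3-/-Bax-/- and 147 and 423 in Bax-/- TrkC GFPon cells (4.79, adjusted p = 4.20e-05, beside 3.18 in TrkC GFPoff cells). Cacna1e differed by 2.77 in TrkC GFPoff and 3.65 in TrkC GFPon cells. All were thus higher without NT3 in both sorts, as was Anxa1 (4.10 in TrkC GFPoff and 4.58 in TrkC GFPon cells). Nefh was lower in both, with 391.8 and 538 in NT3-/-Bax-/- and 9667 and 8398 in Bax-/- TrkC GFPon cells (-4.29, adjusted p = 0.000538, beside -3.21 in TrkC GFPoff cells). Bdnf differed by -2.29 in TrkC GFPoff and -2.99 in TrkC GFPon cells, and Hoxd1 by -5.48 in TrkC GFPoff and -4.47 in TrkC GFPon cells. None of these 7 genes had an interaction past the threshold (adjusted p between 0.159 and 0.736), which does not show that the changes were equal.

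Lists of endothelial, mitotic and glial genes held no rises in the GFPon sort, and the fibroblast and S phase lists held some. Over all genes, 8.9% were higher and 12.5% lower in that sort. In TrkC GFPon cells, 3 of 21 fibroblast genes were higher and 2 lower, none of 19 endothelial genes was called, none of 19 genes of G2 and mitosis was higher and 2 were lower, and none of 19 glial genes was higher and 7 were lower. Of 15 S phase genes, 4 were higher and 1 was lower in TrkC GFPon cells (median 0.44), and 3 had an interaction above 0. Col1a1 differed by 5.96 in TrkC GFPoff and 0.01 in TrkC GFPon cells, with an interaction of 5.94 ± 0.53 (adjusted p = 7.58e-05). Mki67 differed by 3.66 in TrkC GFPoff and -0.83 in TrkC GFPon cells (interaction 4.49, adjusted p = 0.00286), and Tek by 3.94 in TrkC GFPoff and 0.48 in TrkC GFPon cells (interaction 3.46, adjusted p = 0.000615). The rises of these fibroblast, dividing and endothelial genes were larger in the GFPoff sort by a test of the difference itself.

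Several proprioceptor and ERK genes also differed between the populations. Of 12 proprioceptor genes, 1 was higher and 9 were lower in TrkC GFPon cells, with a median of -3.60, and Pvalb differed by -4.62 there and by -0.18 in TrkC GFPoff cells (interaction 4.44, adjusted p = 0.00366). Piezo2 differed by -1.15 in TrkC GFPoff cells and -5.72 in TrkC GFPon cells (interaction 4.56, adjusted p = 2.58e-05). Of 20 ERK genes none was higher and 13 were lower in TrkC GFPon cells, and Spry1 differed by 2.27 in TrkC GFPoff and -1.77 in TrkC GFPon cells (interaction 4.04, adjusted p = 7.58e-05). Ntrk3 differed by 1.99 in TrkC GFPoff and 0.15 in TrkC GFPon cells (interaction 1.84, adjusted p = 0.0185). Neither list was one-sided in GFPoff cells, where 3 proprioceptor genes were higher and 3 lower, and 3 ERK genes were higher and 6 lower.

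Some genes were called in opposite directions. Nell1, a secreted protein, had 306 and 74.6 in NT3-/-Bax-/- and 2501 and 1838 in Bax-/- TrkC GFPoff cells, against 655 and 3239 in NT3-/-Bax-/- and 91.1 and 79.2 in Bax-/- TrkC GFPon cells (interaction -7.93 ± 0.92, adjusted p = 0.000311). St6gal2, a sialyltransferase, differed by -4.87 in TrkC GFPoff and 2.04 in TrkC GFPon cells (interaction -6.90, adjusted p = 8.42e-05), and Meis1, a TALE homeodomain factor, by -1.72 in TrkC GFPoff and 2.59 in TrkC GFPon cells (interaction -4.30, adjusted p = 0.00122). These 3 were lower in GFPoff and higher in GFPon cells, although the Meis1 call in GFPoff cells was lost without NT3-/-Bax-/- replicate 1 and without either Bax-/- array (adjusted p between 0.0547 and 0.0925). Bmp5, a bone morphogenetic protein, differed by 3.62 in TrkC GFPoff and -3.64 in TrkC GFPon cells (interaction 7.26, adjusted p = 8.42e-05), and Lmo2, a LIM-only factor of endothelium and blood, by 2.75 in TrkC GFPoff and -3.76 in TrkC GFPon cells (interaction 6.51, adjusted p = 1.08e-05). Lox, a collagen cross-linking enzyme of fibroblasts, differed by 1.60 in TrkC GFPoff and -5.52 in TrkC GFPon cells (interaction 7.12, adjusted p = 7.07e-06). In Bax-/- mice, Lox was higher in the GFPon sort (1711 and 1250) than in the GFPoff sort (207 and 187). The remaining genes among the 10 largest interactions above 0 were Scara3 (7.23), Lyz1 (6.81), Gm16551 (6.02), Ecrg4 (5.97), Col1a1 (5.94), Cldn1 (5.80) and Pcolce (5.62). Below 0 they were Lpar3 (-6.50), 9430021M05Rik (-5.74), Shisa6 (-5.45), Synpr (-4.90), Sorl1 (-4.86), Abi3bp (-4.80), Ldb2 (-4.79) and Shisa9 (-4.75). Of these, Lyz1, Gm16551, Lpar3, Abi3bp and Shisa9 were not called in GFPoff cells (adjusted p between 0.109 and 0.242). Col1a1, Cldn1 and Pcolce were not called in GFPon cells. In GFPoff cells Lyz1 had 3241 and 122 in NT3-/-Bax-/- and 44.2 and 158 in Bax-/- arrays, so that only 1 array was high.

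**Figure D4:**
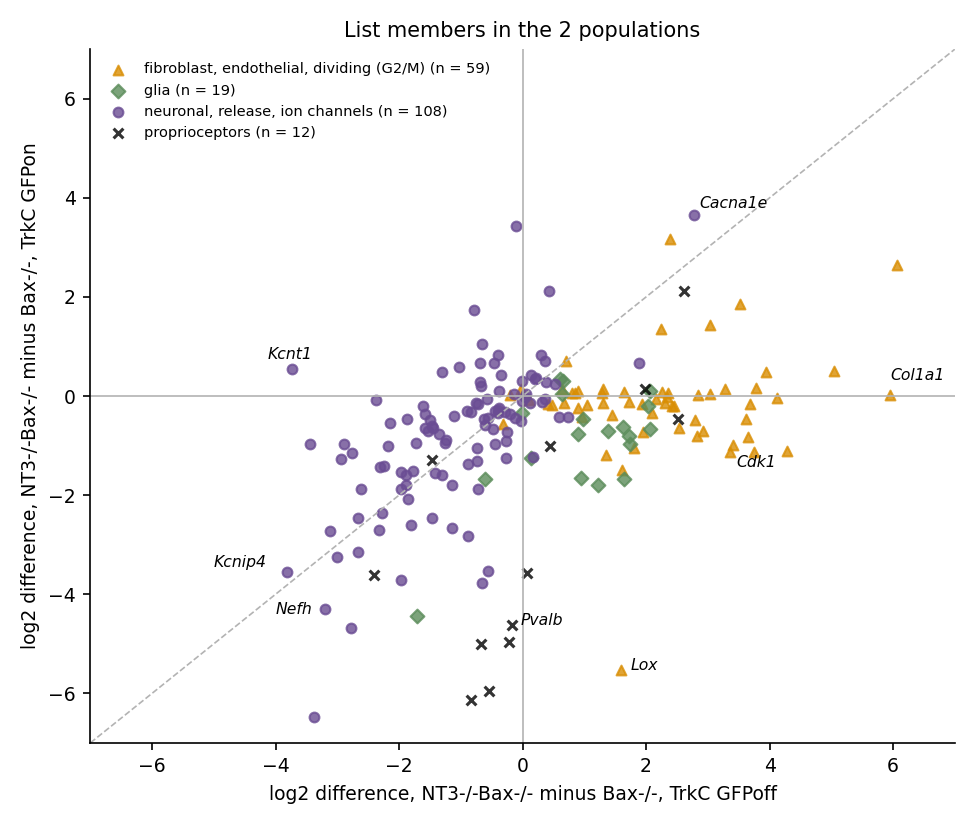
Log2 difference, NT3-/-Bax-/- minus Bax-/-, in TrkC GFPoff cells (x axis) and TrkC GFPon cells (y axis), with 1 point per member of the fibroblast, endothelial, dividing, glial, neuronal, channel and proprioceptor lists and a dashed line of equal differences. Col1a1 lies at 5.96 in TrkC GFPoff and 0.01 in TrkC GFPon cells, and Pvalb at -0.18 in TrkC GFPoff and -4.62 in TrkC GFPon cells.

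A null allele bred onto another strain carries linked DNA with it, so genes near Ntf3 on chromosome 6 were counted apart. Within 5 Mb, 135 genes were measured, of which 20 (14.8%) were higher and 23 (17%) lower, with a median of 0.07, beside 10.2% and 15.3% over all genes. The endothelial gene Vwf lies in that window, with 156 and 365 in NT3-/-Bax-/- cells and 18.5 and 17.04 in Bax-/- cells (3.75, adjusted p = 0.000112). Other called genes there included Mfap5 (1.29) of the fibroblast list, Slc6a13 (1.34) of the meningeal list and Eno2 (-1.97) of the pan-neuronal list. Among them too were the potassium channel genes Kcna1 (-1.47) and Kcna5 (-1.76) and the vesicle gene Vamp1 (-1.81). Whether linked alleles contribute was not tested.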

How the data were processed

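RNA of sorted lumbar DRG cells was amplified by in vitro transcription and hybridised to Affymetrix mouse arrays. The deposited intensity values are linear, 1 per probe set and array, made by the authors with rma(). The submitters' processing notes name R 2.9, affy, RMA and MAS5. The values were taken to log2 without a pseudocount, since the plan had allowed for log2 values and the files hold linear ones. Detection calls were left aside. The log2 medians of the 27 p0 arrays lay between 6.02 and 6.18, and precision is limited by the 2 arrays per group.

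Of 45037 probe sets, 34945 were annotated with 1 gene, 932 with several and 9160 with none. Only those with 1 gene were named, which gave 18194 genes, each read from its brightest probe set. For some named genes only part of the probe sets was called. In TrkC GFPoff cells it was 1 of 3 for Gfra1, Ngfr and Meis1. It was 1 of 2 for Gjd2, Piezo2, Anxa1, Cacna1e, Nell1, S100b and Cdh5. None of these genes had a probe set called in the opposite direction. A mean per group was fitted by limma 3.58.1 under R 4.3.3 (functions lmFit, then eBayes, 16 pooled p0 arrays, 8 residual degrees of freedom, Benjamini-Hochberg adjustment over all probe sets). The interaction was the contrast of the TrkC GFPoff and TrkC GFPon differences. The scripts were tested on simulated data. The gene lists and comparisons were chosen with earlier results of these data known.

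Genes were named by rule: the 20 largest rises and falls without overlap between arrays, up to 4 called members per list with its defining markers, genes the study names, and the 10 largest interactions in each direction; list members are described in part. Etv5, Grm7, Meis1, Ngfr and Sema3c were named after their values were seen. So were the further list members and the genes near Ntf3 given with a difference alone. Alternatives covered the arrays fitted, normalization, array weights, a level filter, an offset, blocks and marker terms. They also covered all probe sets of a gene, the methods' t-test and leaving out each array. The pan-neuronal scaling was added after seeing the data. Same-numbered arrays of the genotypes did not deviate together (r = 0.00913), so no pairing was used. Promoter sequences came from RefSeq (GRCm38.p6).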

Additional observations from a re-analysis of the deposited data

Results flagged for a closer look

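The log2 difference between NT3-/-Bax-/- and Bax-/- cells itself differed between TrkC GFPoff and TrkC GFPon cells for 4348 probe sets by the interaction test of limma (adjusted p under 0.05). The value given for each gene is the TrkC GFPoff difference minus the TrkC GFPon difference on the log2 scale. A value above 0 can come from a rise in GFPoff cells, a fall in GFPon cells or both. Among genes of connective tissue, meninges and mural cells, it was above 0 for Bmp5 (7.26), Lox (7.12), Col1a1 (5.94), Cldn1 (5.80), Zic1 (5.60), Abcc9 (4.39), Pdgfra (4.16), Foxc1 (3.42) and Tgfbi (3.31). Among genes found in endothelium, it was above 0 for Vwf (4.88), Tek (3.46), Cldn5 (2.82), Cdh5 (2.66) and Piezo1 (2.00). Bmp5 (7.26), Lox (7.12) and Lmo2 (6.51) were higher in GFPoff cells and fell in GFPon cells (-3.64, -5.52 and -3.76). In Bax-/- mice, all of these were higher in the GFPon than in the GFPoff sort. Among genes of dividing cells, it was above 0 for Cdk1 (4.49), Mki67 (4.49), Top2a (4.39), Ccnb2 (3.85) and Rrm2 (2.79). Among genes of glia, it was above 0 for Sox2 (3.32), Egr2 (2.73) and Mbp (2.24). It was above 0 for S100b (2.74) as well, which fell in both sorts (-1.70 in GFPoff and -4.45 in GFPon cells). Among genes of proprioceptors or mechanosensation, it was above 0 for Piezo2 (4.56), Pvalb (4.44), Pth1r (3.64), Esrrg (2.97), Ntrk3 (1.84) and Runx3 (1.45). Among genes of neurotransmitter and peptide receptors or channel subunits, it was above 0 for Agtr2 (5.60), Grm3 (4.74), Gabrg1 (4.34), Scn4b (3.09) and Gabrb1 (1.95). Spry1 (4.04), a feedback inhibitor of ERK, and Lyz1 (6.81), a macrophage lysozyme with a near-identical copy that its probe set may also detect, were above 0 as well. Lyz1 was not called in GFPoff cells (adjusted p = 0.109), where NT3-/-Bax-/- replicate 1 had 3241 and replicate 2 had 122. The interaction was below 0 for Nell1 (-7.93), St6gal2 (-6.90), Synpr (-4.90), Meis1 (-4.30), Kcnt1 (-4.28), Meis2 (-3.21), Isl2 (-3.06), Gfra1 (-2.46), Lmo1 (-1.97), Spry3 (-1.84), Sema3c (-1.71), Grm7 (-1.43) and Rbfox3 (-1.40). No explanation of these differences was tested, and groups of 2 arrays allowed no search for outlying samples.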

How the results depend on the processing

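With all 27 p0 arrays, with the 8 TrkC GFPoff arrays, after quantile normalization, with 16 added before the log, with the sort shared by arrays as a random block and with the replicate block (4576 higher, 5462 lower), counts of higher and lower probe sets stayed within 1.5 times those given and none of 84 genes followed through every setting changed direction. The replicate block changed no call of these genes, and replicate numbers did not pair the genotypes (r = 0.009 between deviations of same-numbered TrkC GFPoff arrays). Same-numbered TrkC GFPoff and TrkC GFPon arrays correlated with r = 0.158 in NT3-/-Bax-/-, 0.283 in Bax-/-, 0.197 in wild-type and 0.008 in mlcNT3 mice, which carry extra NT3 in muscle, and 5060 probe sets had an interaction with the shared sort as a random block and 4500 with the replicate block, against 4348. Fitting the 4 arrays alone gave 1793 higher and 1871 lower probe sets, and the calls of S100b (adjusted p = 0.0581), Cd14 (0.234), Nefh (0.099), Rbfox3 (0.0656), Piezo2 (0.0744), Lmo1 (0.0862), Psd2 (0.102), Ngfr (0.128), Bcl2l11 (0.132), Neurod1 (0.0703), Jun (0.0903), Rab27b (0.0688), Gna14 (0.0556) and Synpr (0.185) were lost. The calls of Cd14 (0.0957) and Synpr (0.0627) were lost with the 8 TrkC GFPoff arrays, that of Bcl2l11 with the offset (0.061) and with array weights (0.0682), and that of Cd14 also with the offset (0.0623) and after quantile normalization (0.0505). With probe sets of a mean log2 of at least 6 only, 2785 were higher and 5088 lower (35.4% higher among those called, against 45.6% without that filter). Array weights left 2365 interaction calls. With each gene read from the mean of all its probe sets, the median of 13 of 38 lists moved by more than the spread between arrays. The sign turned for 2 lists. Without each array in turn, 2055 to 4418 probe sets were higher, 2567 to 4543 lower, and 2622 to 5035 had an interaction, each lowest without Bax-/- replicate 1. The methods' t-test gave 1522 probe sets at the study's thresholds and 0 higher and 0 lower after Benjamini-Hochberg adjustment, with 7742 at an unadjusted p under 0.05. The pan-neuronal scaling, chosen after seeing the data, gave 30563 higher, 1156 lower, 17903 at the study's thresholds and 2642 interactions.

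With the combined marker term, 0 probe sets were higher, 1 lower, 864 at the study's thresholds and 1 had an interaction. With the endothelial term the numbers were 0, 0, 324 and 0, with the fibroblast term 0, 0, 521 and 0, and with the dividing term 0, 0, 1671 and 27. At an unadjusted p under 0.05, 2159, 937, 1534 and 3625 probe sets passed with the combined, endothelial, fibroblast and dividing terms, against 15001 without a term. The following log2 differences, none past the threshold, turned sign in those fits. With the combined term they were Col3a1 -3.92, Abcc9 -0.38, Mki67 -3.49, Top2a -2.80, Ccnb2 -1.47, Cdk1 -0.35, Rrm2 -0.13, Mbp -2.69, Sox2 -0.36, S100b 0.85, Tgfbi -0.40, Ppp1r17 -0.67, Syt1 2.40, Nefh 4.46, Rbfox3 1.59, Gfra1 0.84, Piezo2 1.23, Lmo1 -1.18, Psd2 -1.19, Ngfr 4.43, Bdnf 1.95, Vgf 0.56, Etv5 0.45, Isl2 0.35, Meis2 1.01, Meis1 1.00, Neurod1 -0.59, Scn4b 1.31, Cacna1e -0.53, Nts -0.73, Sema3c -0.67, Jun -0.15, Rab27b 5.69, St6gal2 0.22, Nell1 4.88, Bmp5 -0.77, Synpr 4.90 and Grm7 0.14. With the endothelial term they were Tek -0.086, Cdh5 -0.48, Abcc9 -0.77, Mbp -0.65, S100b 0.61, Cd14 -0.18, Tgfbi -0.11, Gfra1 0.97, Ntrk3 -0.85, Gjd2 1.05, Ngfr 1.86, Bmf -0.87, Bcl2l11 -0.0374, Meis1 1.97 and Lmo2 -1.12. With the fibroblast term they were Col3a1 -2.57, Mki67 -0.26, Top2a -0.0849, Mbp -1.32, S100b 0.83, Syt1 0.84, Nefh 3.18, Rbfox3 0.56, Gfra1 0.13, Piezo2 0.99, Lmo1 -0.75, Psd2 -0.81, Ngfr 3.44, Bdnf 1.10, Etv5 0.54, Bcl2l11 -0.98, Meis2 0.0487, Neurod1 -1.44, Kcnip4 0.0877, Scn4b 1.74, Nts -1.12, Sema3c -0.30, Jun -1.24, Egr2 -0.67, Rab27b 2.11, Nell1 1.25, Bmp5 -0.30 and Synpr 2.99. With the dividing term they were Mki67 -1.13, Top2a -0.67, Mbp -0.57, Syt1 0.64, Nefh 0.99, Rbfox3 0.42, Piezo2 0.13, Lmo1 -0.0545, Ngfr 1.24, Bdnf 0.18, Meis1 0.82, Rab27b 1.38, Nell1 1.98 and Synpr 1.96. The median standard error was 1.08, 1.27, 0.95 and 0.68 in those fits, in the order given, against 0.22 without a term. With 2 arrays per group, the number of arrays limits precision, and dim probe sets have compressed differences.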
